A study of Mus musculus with 24 samples.

Results

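The genes described here are Gfra1, Ret, Etv5, Id4, Zbtb16, Sall4, Lin28a, Nanos3, Foxo1 and Utf1. They encode the receptor complex for glial cell line-derived neurotrophic factor (GDNF), a transcription factor downstream of it, and other regulators of undifferentiated mouse spermatogonia. They were taken as the rows that carry exactly these symbols, and all 10 were found among the 52231 gene rows of the tables of total and of nascent RNA. The members were followed through spermatogonia, preleptotene, leptotene and pachytene spermatocytes of wild-type NMRI mice. In every animal spermatogenesis had been synchronised with WIN18,446, an inhibitor of retinoic acid synthesis, and then retinoic acid, so no group was free of these drugs. Every mouse received 2 mg of 5-ethynyl uridine (EU), a uridine analogue that is built into new RNA, at 24 days of age and was killed 3 hours later. Testis cells were sorted by ploidy, which does not select undifferentiated spermatogonia by a surface marker. RNA was measured either as total RNA after ribosomal depletion or as captured EU-labelled (nascent) RNA. Each assay had 12 libraries: 3 of spermatogonia (2 animals), 1 of preleptotene (1 animal), 4 of leptotene (3 animals) and 4 of pachytene (2 animals). The labels number the animals of total RNA 1 to 4 and those of nascent RNA 5 to 8. The animals follow the same pattern over stages in both assays, and whether they were the same mice is not given in the sources used here. The comparisons between assays treat their libraries as independent. No animal gave both spermatogonia and pachytene cells, so for that comparison stage and animal cannot be told apart.

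GDNF is secreted by Sertoli and peritubular cells of the testis. It binds GFRA1, a receptor anchored in the membrane by a lipid, and the pair engages the receptor tyrosine kinase RET, which signals through adaptors, SRC family kinases, AKT and MAP kinases. Etv5 and Id4 are among the genes that GDNF is known to raise in cultured germline stem cells. Zbtb16 (PLZF) and Sall4 are zinc finger factors of undifferentiated spermatogonia, Foxo1 is a forkhead factor held out of the nucleus by AKT, and Utf1 is a chromatin-associated factor. Lin28a binds RNA and blocks maturation of let-7 microRNAs, and Nanos3 is an RNA-binding repressor of translation. Retinoic acid commits these cells to differentiation and then to meiosis.

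Of the 10 genes, 7 had an entry in the RefSeq promoter table (build GRCm38.p6). The bases upstream of the RefSeq start, without any annotated exon, are shown for Id4, the gene that rose in pachytene cells, and for Lin28a and Foxo1, which fell there. Each is written 5′ to 3′ on the strand of its gene. Capitals mark a TGACG match, the half-site of the cAMP response element, which lies on the other strand and so reads CGTCA.
Id4 (chr13:48260866-48261115, plus strand): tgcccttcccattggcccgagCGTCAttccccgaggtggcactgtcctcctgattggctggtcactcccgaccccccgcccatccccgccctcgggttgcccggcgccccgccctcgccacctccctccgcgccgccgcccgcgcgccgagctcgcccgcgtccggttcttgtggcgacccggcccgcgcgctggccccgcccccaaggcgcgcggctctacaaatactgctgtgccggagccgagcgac
Lin28a (chr4:134018842-134019066, minus strand): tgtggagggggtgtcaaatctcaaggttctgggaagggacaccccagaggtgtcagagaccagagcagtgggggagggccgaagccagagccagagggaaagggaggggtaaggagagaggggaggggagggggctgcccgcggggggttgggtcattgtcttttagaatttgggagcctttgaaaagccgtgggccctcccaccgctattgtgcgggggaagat
Foxo1 (chr3:52268087-52268335, plus strand): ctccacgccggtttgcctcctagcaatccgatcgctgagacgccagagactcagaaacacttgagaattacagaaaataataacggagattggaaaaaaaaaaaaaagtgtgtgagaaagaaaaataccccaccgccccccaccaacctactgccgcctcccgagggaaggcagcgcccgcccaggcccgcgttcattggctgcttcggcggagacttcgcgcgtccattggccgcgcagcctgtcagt
The Id4 window was the most GC-rich of these, with 75.6% G or C and 35 CpG dinucleotides in 250 bases. The Lin28a window held 61.3% G or C and 6 CpG dinucleotides in 225 bases, and the Foxo1 window 55.8% and 20 in 249. The cAMP half-site TGACG was found once, 229 bases upstream in Id4, and 17.8% of all 32851 promoters in the table hold it in a window of 250 bases. On either strand no match to CCGGAAGT (an ETS factor sequence, in 2.88% of promoters), AACNGTT (MYB, 3.80%), AGGTCA (nuclear receptor half-site, 14%) or CACGTG (E-box, 6.02%) lay in these windows. A match is a string of letters, not a tested binding site.

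Values are FPKM, fragments per kilobase of transcript per 1e6 mapped, so levels of different genes may be compared per length. Implied depth, in units of 1e6 reads, was 7.07 to 15.8 in total RNA libraries and 5.07 to 10.1 in nascent ones. ERCC spike-in RNA made up 2.49% to 8.19% of FPKM in total RNA libraries but 5.01% to 76.5% in nascent ones. Leptotene library 2 stood apart in both assays. In total RNA it correlated with the pachytene libraries at Spearman 0.874 to 0.904 across genes and with the other leptotene libraries at 0.528 to 0.569. Leptotene library 3 correlated best with spermatogonia library 3 (0.853), followed by preleptotene (0.851) and leptotene libraries 4 (0.846) and 1 (0.841), and less with spermatogonia libraries 1 (0.782) and 2 (0.739). Pachytene library 3 was the highest of its stage for several members and also for the summed Sertoli markers (7.1 FPKM against 2.87 to 4.15). It was also highest for the summed leptotene and early meiosis markers (66.5 against 43.9 to 51.1). It was lowest for the summed Leydig markers (4.6 against 7.77 to 7.84) and blood and macrophage markers (2.39 against 2.72 to 3.55). For peritubular and vascular markers it lay within the range of the others (2.18). Of the Leydig sum, Star alone held 4.1 to 7.22 FPKM over the pachytene libraries. The source of the members' RNA in pachytene library 3 was not tested. In bulk samples fewer cells of a type and less RNA per cell cannot be told apart. Differences between stages are given as log2(FPKM + 1) with the standard error after ±, averaged per animal. They were tested with limma and Benjamini-Hochberg adjustment over all genes, and "rose" and "fell" mark an adjusted p under 0.05. On this scale the change of genes at low levels is understated.

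**Figure D1:**
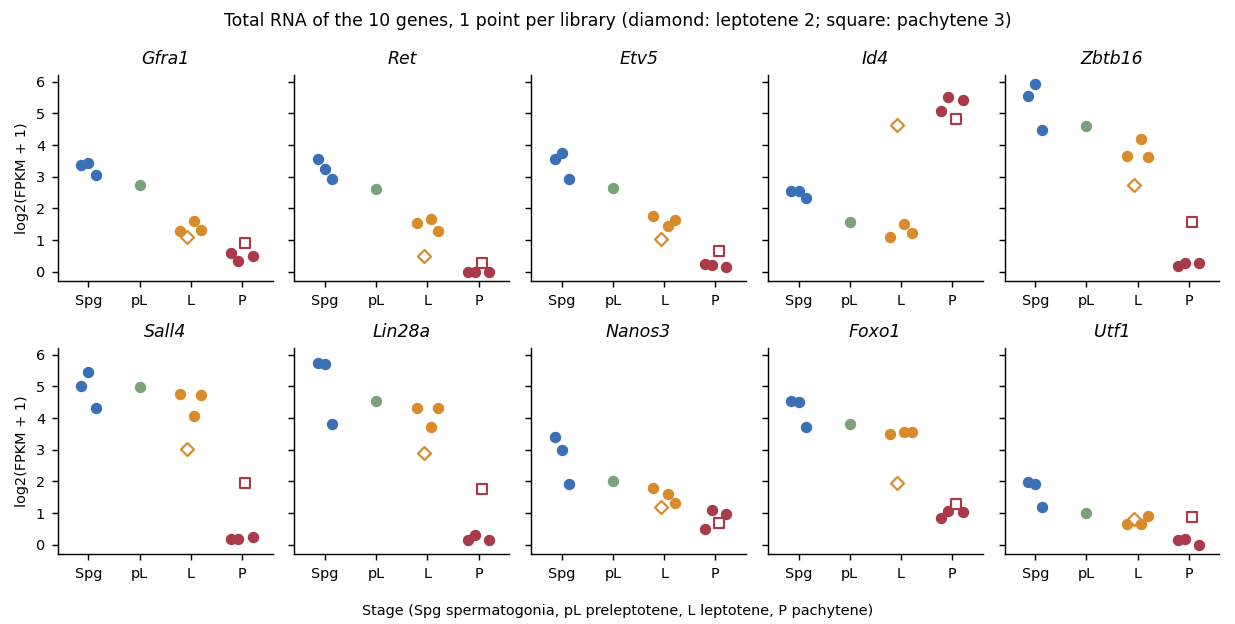
Total RNA of the 10 genes by library, as log2(FPKM + 1) on the vertical axis against stage on the horizontal axis, 1 point per library. On this scale Gfra1, Ret and Etv5 are already low in leptotene cells and lower again in pachytene cells. Zbtb16, Sall4, Lin28a and Foxo1 reach their low level in pachytene cells, and Id4 is high only in the 4 pachytene libraries and in leptotene library 2.

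Both GDNF receptor genes and Etv5 fell between spermatogonia and leptotene, and they were the members that did so in total RNA. Gfra1 stood at 9.24, 9.75 and 7.39 FPKM in spermatogonia, 5.75 in preleptotene, 1.45, 1.13, 2.02 and 1.51 in leptotene, and 0.524, 0.277, 0.882 and 0.41 in pachytene cells. Its highest leptotene library lay below its lowest spermatogonia library, and its highest pachytene library below every leptotene library. The leptotene minus spermatogonia difference was -1.86 ± 0.29 (adjusted p = 0.00544). It was of like size in the animals that gave both stages, -1.88 in animal 1 and -2.07 in animal 3. Against spermatogonia, the mean per animal was 68% in preleptotene, 19% in leptotene and 6.19% in pachytene. The pachytene minus leptotene step was -0.78 ± 0.29 (adjusted p = 0.061) and did not pass. It passed with a pseudocount of 0.1, where it was -1.52 (adjusted p = 0.0237), and with eBayes without trend (adjusted p = 0.0486). It also passed without leptotene library 2 (-0.81, adjusted p = 0.0209), without pachytene library 3 (-0.85, adjusted p = 0.0392) and over the 9 libraries of the authors' 5S-corrected table (-0.79, adjusted p = 0.0166). With animal as a block it was -1.17 and did not pass, but this is the difference of animal 4 alone, the only animal with both stages. Divided by the summed spike-ins the step was -0.36 (adjusted p = 0.439).

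Ret, the kinase that GFRA1 engages, followed the same order. It measured 10.8, 8.45 and 6.55 FPKM in spermatogonia, 5.14 in preleptotene, and 1.92, 0.4, 2.15 and 1.45 in leptotene. In pachytene cells it was listed at 0 in 3 libraries and at 0.206 in library 3. No library of one stage overlapped with another stage. Ret fell by 1.84 ± 0.31 from spermatogonia to leptotene (adjusted p = 0.00666) and by 1.25 ± 0.31 from leptotene to pachytene (adjusted p = 0.0127). Etv5, an ETS factor needed for self-renewal and also known from Sertoli cells, was at 10.8, 12.4 and 6.62 FPKM in spermatogonia and 5.24 in preleptotene. It then measured 2.35, 1.05, 1.71 and 2.09 in leptotene and 0.195, 0.15, 0.587 and 0.112 in pachytene, again with no overlap. It fell by 1.81 ± 0.31 at the first step (adjusted p = 0.0078) and by 1.17 ± 0.31 at the second (adjusted p = 0.0182). With animal as a block, which again leaves animal 4 alone, the second step of Etv5 was -1.26 and did not pass. It did not pass either when divided by the summed spike-ins (-0.88, adjusted p = 0.0688) or without leptotene library 1 (adjusted p = 0.187) or library 4 (adjusted p = 0.0558).

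RNA of cells outside the germ line moved with these falls. The 15 Sertoli markers summed to 179 to 247 FPKM in spermatogonia libraries, 46.3 in preleptotene, 11 to 46.7 in leptotene and 2.87 to 7.1 in pachytene. The 10 peritubular and vascular markers summed to 228 to 497 FPKM in spermatogonia, 41 in preleptotene, 3.33 to 20.2 in leptotene and 1.83 to 2.49 in pachytene. The 8 Leydig markers summed to 173 to 435 FPKM, 15.3, 2.76 to 21.2 and 4.6 to 7.84 in the same order of stages, and the 7 blood and macrophage markers to 36.8 to 47.5, 8.01, 1.9 to 6.62 and 2.39 to 3.55. None of these markers was at 0 in all spermatogonia libraries. Of those tested, 11 of 14 Sertoli, 5 of 8 Leydig, 8 of 8 peritubular and vascular and 3 of 5 blood and macrophage markers fell from spermatogonia to leptotene, and none rose, where 9.65% of all genes fell. From leptotene to pachytene the Leydig marker Star rose (1.23 ± 0.30, adjusted p = 0.0124), where 22.5% of all genes rose. The part of these cells in the levels of the 10 genes in spermatogonia libraries was not tested.

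**Figure D2:**
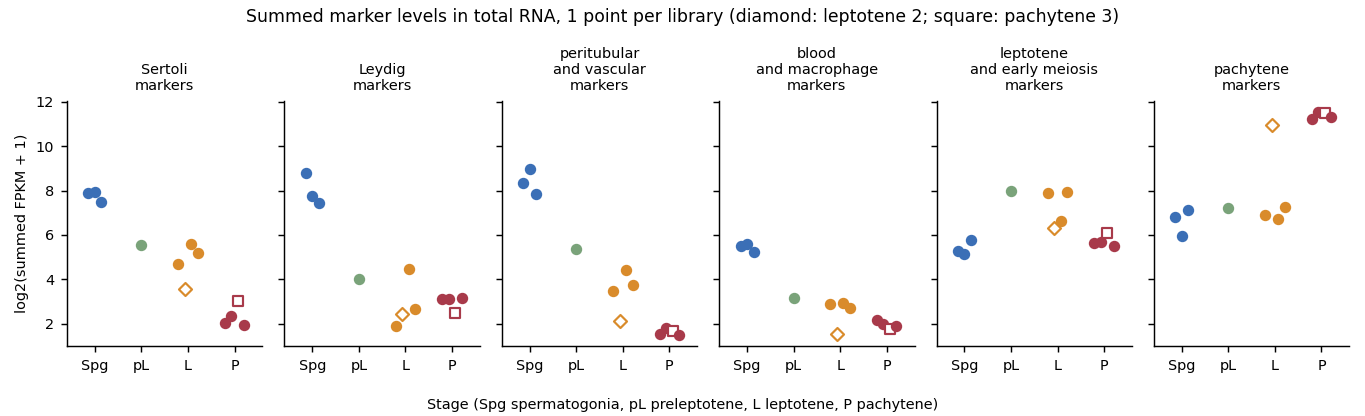
Summed FPKM of marker lists in total RNA, as log2(sum + 1) on the vertical axis against stage on the horizontal axis, 1 point per library. Sertoli, Leydig, peritubular and blood markers are highest in the 3 spermatogonia libraries, and pachytene markers sum to 1947 in leptotene library 2, near the 2417 to 2967 of the pachytene libraries.

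Zbtb16, Sall4, Lin28a and Foxo1 fell between leptotene and pachytene, and their first step did not pass in total RNA. In leptotene their means were 33.1%, 68.8%, 45.5% and 55.1% of those of spermatogonia, beside 32.8% for Nanos3 and 34.1% for Utf1. Whether these shares differed between genes was not tested. Zbtb16 measured 46.3, 60 and 21.5 FPKM in spermatogonia, 23 in preleptotene, and 11.7, 5.64, 17.2 and 11.3 in leptotene. It then stood at 0.143, 0.224, 1.94 and 0.213 in pachytene. Spermatogonia, leptotene and pachytene libraries did not overlap, and the preleptotene library lay just above the spermatogonia library of animal 1. The first step was -1.45 ± 0.47 and did not pass (adjusted p = 0.0982), but with animal as a block it was -1.71 and passed (adjusted p = 0.0349). Divided by the summed spike-ins it was -1.74 and passed as well (adjusted p = 0.0379). The second step fell by 3.09 ± 0.47 (adjusted p = 0.00315).

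On log2(FPKM + 1) in total RNA Sall4 had the smallest difference of the 10 genes between spermatogonia and leptotene, close to that of Id4 (-0.59 ± 0.49). By the means per animal in leptotene, Id4 stood at 116% of spermatogonia and Sall4 at 68.8%. The levels of Sall4 were 31.2, 43.3 and 19 FPKM in spermatogonia, 30.2 in preleptotene, 26.2, 7.18, 15.9 and 25.6 in leptotene, and 0.137, 0.145, 2.87 and 0.178 in pachytene. Spermatogonia and leptotene libraries overlapped, and the single preleptotene library stood at 108% of the spermatogonia mean. No other member was above its spermatogonia mean there. The first step was -0.55 ± 0.44 (adjusted p = 0.536), or -0.26 without leptotene library 2 (adjusted p = 0.732). Sall4 then fell by 3.59 ± 0.44 (adjusted p = 0.00312), the lowest value among the 10 genes at that step on log2(FPKM + 1). By the ratio of pachytene to leptotene means Ret was lower, at 0.0325 against 0.043 for Sall4. Pachytene library 3 held 2.87 FPKM while the other pachytene libraries held at most 0.178.

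Foxo1 stood at 22.1, 21.8 and 12.2 FPKM in spermatogonia and 13 in preleptotene. In leptotene 3 libraries lay together at 10.4, 10.7 and 10.9 and library 2 lay at 2.87, while pachytene cells held 0.813, 1.11, 1.45 and 1.05. The first step was -0.84 ± 0.39 (adjusted p = 0.259) and the second fell by 2.22 ± 0.39 (adjusted p = 0.00399). Foxo1 has 1 annotated transcript, so reads can be read back from its FPKM: about 1386 to 2293 in spermatogonia libraries and 83.5 to 199 in pachytene ones. The low pachytene level was therefore measured and not a missing value.

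Lin28a differed between the animals that gave spermatogonia, with 52.3 and 50.7 FPKM in the libraries of animal 3 and 13.1 in that of animal 1. It measured 22.4 in preleptotene, 19, 6.43, 12.2 and 19.1 in leptotene, and 0.116, 0.24, 2.36 and 0.106 in pachytene. The spermatogonia library of animal 1 lay within the leptotene range, and the first step of -0.88 ± 0.55 did not pass (adjusted p = 0.415). Lin28a then fell by 3.30 ± 0.55 (adjusted p = 0.00353). Nanos3 was again lowest in spermatogonia of animal 1, at 2.79 FPKM against 9.5 and 6.89. It measured 3.03 in preleptotene, 2.48, 1.29, 2.03 and 1.48 in leptotene and 0.419, 1.16, 0.606 and 0.953 in pachytene. Neither step of Nanos3 passed, at -1.09 ± 0.39 (adjusted p = 0.142) and -0.65 ± 0.39 (adjusted p = 0.211). Without spermatogonia library 3, the only one of animal 1, the first step of Nanos3 was -1.72 and passed (adjusted p = 0.0324).

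Utf1 had the lowest spermatogonia level of the 10 genes, with 2.99, 2.81 and 1.28 FPKM. It measured 0.985 in preleptotene, 0.593, 0.771, 0.581 and 0.876 in leptotene, and 0.117, 0.133, 0.846 and 0 in pachytene. With 1 annotated transcript, the leptotene values stand for about 5.85 to 13.9 reads a library. The 0 in pachytene library 4 allows up to 0.173 FPKM, the level of 3 reads, which covers counting error only. Its steps were -0.80 ± 0.29 (adjusted p = 0.136) and -0.47 ± 0.29 (adjusted p = 0.221), and neither passed. Without spermatogonia library 3 the first step was -1.19 and passed (adjusted p = 0.0338).

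Id4, which encodes an inhibitor of basic helix-loop-helix factors and marks stem spermatogonia as a reporter, had the opposite end point. Its total RNA stood at 4.88, 4.91 and 4.02 FPKM in spermatogonia and 1.96 in preleptotene. Leptotene libraries 1, 3 and 4 held 1.12, 1.82 and 1.33, and library 2 held 23.7. Pachytene libraries held 32.4, 44.6, 27.1 and 42.3, all above every other library. Id4 rose by 3.35 ± 0.49 from leptotene to pachytene (adjusted p = 0.00315), and the mean per animal was 8.21 times that of spermatogonia. Within animal 4, which gave leptotene library 3 and pachytene libraries 2 and 4, the difference was 3.98. The pachytene RNA corresponds to about 1478 to 2304 reads a library over the single transcript of 3849 bases.

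Whether Id4 fell before it rose rested on leptotene library 2. Over all libraries the leptotene minus spermatogonia difference was -0.59 ± 0.49 (adjusted p = 0.555). Without that library Id4 fell by 1.18 (adjusted p = 0.0279), to 31.9% of the spermatogonia mean, and the later rise was 3.94 (adjusted p = 4.7e-05). The preleptotene library lay at 43.9% of that mean. A330033J07Rik, the gene that overlaps Id4 on the opposite strand and has a row, reached at most 1.07 FPKM in pachytene total RNA. The use of strand in the counting is not given in the sources used here.

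Set against all genes, 3 of the 10 members fell from spermatogonia to leptotene and none rose, where 9.65% of the 19097 genes tested fell and 0.293% rose. From leptotene to pachytene 6 members fell (Ret, Etv5, Zbtb16, Sall4, Lin28a and Foxo1) and Id4 rose, where 18% of genes fell and 22.5% rose. Over the whole course, pachytene against spermatogonia, 9 members fell and Id4 rose by 2.76 ± 0.54 (adjusted p = 0.00303), where 29.9% of genes fell and 23.2% rose. On log2(FPKM + 1) the largest of these falls was that of Zbtb16, 4.54 ± 0.51 (adjusted p = 0.000841), followed by Lin28a at 4.17 and Sall4 at 4.14. As a share of the spermatogonia mean the order was another, with Ret lowest at 0.638%, then Zbtb16 at 1.69%, Lin28a at 2.19%, Etv5 at 2.87% and Sall4 at 2.96%. With animal as a block Nanos3 (adjusted p = 0.0983) and Utf1 (adjusted p = 0.114) no longer passed there, and without leptotene library 1 Id4 did not (2.76, adjusted p = 0.0754). The median difference of the members was -0.98 at the first step and -1.21 at the second, beside -0.07 and -0.06 for all genes. Without leptotene library 1, library 2 alone stands for that animal: then 0.0427% of genes rose and 0.00533% fell from leptotene to pachytene, 9 genes in all, and no member passed. Without library 2, 7 members fell and 1 rose, where 24.8% of genes fell and 29% rose. Without pachytene library 3 it was again 7 and 1, where 19.1% fell and 23.1% rose. Divided by the summed spike-ins, the median of all genes at the second step moved to 0.62, and 7860 genes rose while 2104 fell, against 4298 and 3428 in FPKM.

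**Figure D3:**
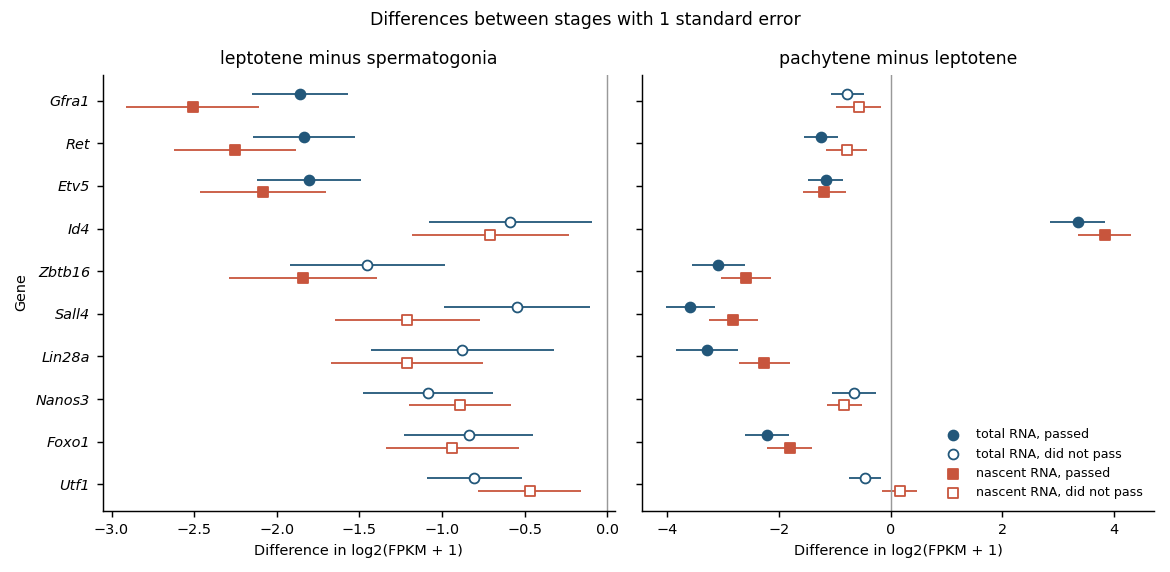
Differences in log2(FPKM + 1) on the horizontal axis for each gene on the vertical axis, leptotene minus spermatogonia on the left and pachytene minus leptotene on the right, with bars of 1 standard error; filled marks passed an adjusted p of 0.05. Receptor genes and Etv5 passed on the left in both assays, and Id4 is the single gene right of 0 with a filled mark.

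Nascent RNA gave a similar set of calls. At the first step Gfra1, Ret, Etv5 and Zbtb16 fell, and at the second Zbtb16, Sall4, Lin28a, Foxo1 and Etv5 fell while Id4 rose. Thus 4 of 10 members fell from spermatogonia to leptotene, where 10.2% of the 15994 genes tested fell and 0.863% rose. From leptotene to pachytene 5 fell and 1 rose, where 16.2% of genes fell and 16.2% rose. Because the share of spike-ins differed between libraries, the calls were repeated with all other rows rescaled to 1e6 per library: no member lost its call, and Nanos3 passed in addition at the second step (-1.61, adjusted p = 0.0375).

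Nascent Gfra1 measured 11.8, 14.2 and 7.97 FPKM in spermatogonia, 4.6 in preleptotene, 0.733, 0.527, 1.92 and 0.603 in leptotene, and 0.241, 0.138, 0.577 and 0.378 in pachytene. The leptotene value that stood out was that of library 3, the leptotene library nearest to spermatogonia. Gfra1 fell by 2.51 ± 0.40 (adjusted p = 0.00234), with -2.46 in animal 5 and -3.12 in animal 7. Nascent Ret stood at 9.21, 9.47 and 6.06 FPKM, then 3 in preleptotene, 0.706, 0.23, 1.53 and 0.578 in leptotene and at most 0.0985 in pachytene. It fell by 2.25 ± 0.37 (adjusted p = 0.00257). Leptotene and spermatogonia libraries did not overlap for either receptor. In leptotene the nascent mean was 10% of that of spermatogonia for Gfra1 and 11.1% for Ret, beside 19% and 19.6% in total RNA.

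Nascent Etv5 measured 13.3, 13.6 and 8.39 FPKM in spermatogonia, 5.55 in preleptotene, 2.57, 0.847, 1.32 and 2.49 in leptotene, and 0.101, 0.147, 0.539 and 0.0961 in pachytene. It fell by 2.08 ± 0.38 at the first step (adjusted p = 0.00469) and by 1.19 ± 0.38 at the second (adjusted p = 0.036). The second step of Etv5 was lost with animal as a block (-1.05), where it rests on animal 8 alone. It was also lost with no filter on low values (adjusted p = 0.0585). The same held without leptotene library 1 (adjusted p = 0.165), leptotene library 4 (0.104), pachytene library 1 (0.0838) or spermatogonia library 3. Nascent Zbtb16 stood at 39.2, 44.5 and 22 FPKM in spermatogonia, 12.6 in preleptotene, 6.9, 4.94, 11.8 and 6.64 in leptotene, and 0.114, 0.343, 1.24 and 0.354 in pachytene. Stages did not overlap, and Zbtb16 fell by 1.84 ± 0.45 (adjusted p = 0.0221) and then by 2.58 ± 0.45 (adjusted p = 0.002). Without leptotene library 4 its first step was -1.75 and did not pass (adjusted p = 0.059), nor did it with no filter on low values (adjusted p = 0.0521).

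Nascent Sall4, Lin28a and Foxo1 fell at the second step. Sall4 was at 34.1, 38.9 and 16.2 FPKM in spermatogonia, 13.1 in preleptotene, 13.2, 6.28, 10.1 and 10.7 in leptotene and 0.189, 0.285, 1.75 and 0.391 in pachytene. In FPKM all its leptotene libraries lay below all spermatogonia libraries, yet the difference of -1.21 ± 0.44 did not pass (adjusted p = 0.113). Rescaled outside the spike-ins, these stages overlapped, as they did in total RNA. Leptotene library 1 then stood at 49.7 and spermatogonia library 3 at 46.8. Sall4 fell by 2.82 ± 0.44 at the second step (adjusted p = 0.00128). Lin28a measured 20.2, 29 and 9.24 FPKM, then 10.2, then 6.26, 5.28, 5.07 and 7.15, and at last 0.109, 0.302, 1.72 and 0.0986. The spermatogonia of animal 5 were the lowest, as were those of animal 1 in total RNA. Lin28a fell by 2.27 ± 0.46 at the second step (adjusted p = 0.00421).

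Nascent Foxo1 measured 14.5, 14.6 and 11.4 FPKM in spermatogonia, 9.48 in preleptotene, 8.91, 1.94, 7.45 and 7.31 in leptotene and 0.698, 0.934, 0.779 and 2.14 in pachytene. It fell by 1.81 ± 0.40 at the second step (adjusted p = 0.0068). That call was lost with animal as a block (-1.78), where it rests on animal 8 alone, and without leptotene library 1 (-1.51, adjusted p = 0.104). Nascent Nanos3 measured 3.1, 1.63 and 2.42 FPKM in spermatogonia and at most 1.27 in leptotene, and was listed at 0 in 3 pachytene libraries. Nascent Utf1 was listed at 0 in 1 spermatogonia, 2 leptotene and 1 pachytene library and did not exceed 1.51 FPKM. Its largest number of reads was about 15.5. Its first step was -0.47 ± 0.31 and did not pass (adjusted p = 0.394). Without spermatogonia library 3, the one listed at 0, it was -1.09 and passed (adjusted p = 0.0143).

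Nascent Id4 measured 2.21, 2.85 and 1.96 FPKM in spermatogonia, 1.85 in preleptotene, 0.57, 4.92, 0.82 and 0.384 in leptotene, and 27.7, 27, 11.6 and 60.3 in pachytene. Leptotene library 2 was the highest of its stage here too, and the pachytene libraries lay above all others. Id4 rose by 3.83 ± 0.48 from leptotene to pachytene (adjusted p = 0.000936) and passed in all 18 alternatives run, with values of 3.51 to 5.94. Rescaled to 1e6 outside the spike-ins, the pachytene libraries stood at 116, 121, 61.1 and 165 beside 5.67 to 9.53 in spermatogonia.

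**Figure D4:**
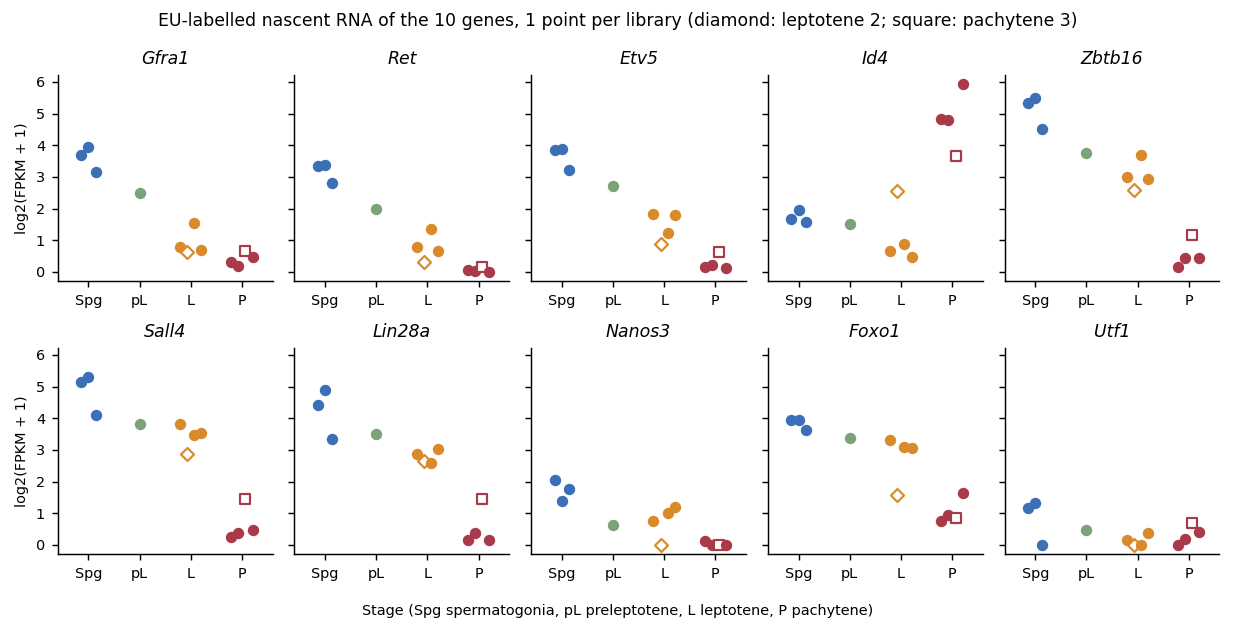
Nascent RNA of the 10 genes by library, as log2(FPKM + 1) on the vertical axis against stage on the horizontal axis, 1 point per library. On this scale Gfra1, Ret and Etv5 are low from leptotene on, with Ret and Etv5 lower again in pachytene cells. Id4 lies highest in the 4 pachytene libraries, between 11.6 and 60.3 FPKM.

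The comparison of the assays bears only in part on the study's question whether RNA was kept while its synthesis changed. It used uncorrected nascent FPKM, which measure composition, so a change in overall transcription is not seen. None of the 10 genes differed between total and nascent RNA in its change at either step, by the interaction of assay and stage in limma on 15616 genes. At the first step 0 genes of all those tested rose and 0 fell at the adjusted threshold (0% and 0%). There 436 passed an unadjusted p under 0.05, which is less than a share of 0.05 of the genes tested. The members' values ran from -0.33 for Utf1 to 0.66 for Sall4 (adjusted p = 0.999). For Gfra1 the difference of differences was 0.65 ± 0.48 and for Ret 0.41 ± 0.46. At the second step 0.0064% of genes rose and 0.0192% fell, and the lowest member was Lin28a at -1.03 ± 0.75 (adjusted p = 0.855). With standard errors of 0.46 to 0.75 over the members, this does not show that the assays changed alike.

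In the authors' 5S-corrected table each nascent library is multiplied by 1 constant, from 0.441 to 5.08, and 9 libraries are given. There Gfra1 stood at 46.1, 38.7 and 7.52 in spermatogonia, 2.15 in preleptotene, 0.431 and 0.266 in leptotene libraries 1 and 4, and 0.423, 0.701 and 0.859 in pachytene libraries 1, 2 and 4. Its pachytene values thus reached those of leptotene. Id4 stood at 8.63, 7.75 and 1.85 in spermatogonia, 0.866 in preleptotene, 0.335 and 0.169 in leptotene and 48.7, 137 and 137 in pachytene. On this scale the median of all genes was -1.08 at the first step and 0.88 at the second. In uncorrected FPKM it was -0.09 and -0.26 over all libraries, and -0.12 and -0.21 over the same 9 libraries. On the corrected scale 27.2% of genes fell at the first step while 31.1% rose at the second. There 8 of 10 members fell at the first step (all but Id4 and Utf1). At the second Id4 alone passed, with a rise of 5.94 (adjusted p = 6.15e-07). Over the same 9 libraries in uncorrected FPKM, Nanos3 (-0.77, adjusted p = 0.0275) and Id4 (-1.13, adjusted p = 0.024) also fell at the first step. Relative to the shift of all genes, Gfra1 was 2.66 below the median at the first step on the corrected scale, beside 2.42 in uncorrected FPKM over all libraries.

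Other genes of the GDNF pathway were described from lists drawn up for this purpose. The counts below stand beside 9.65% of all genes that fell and 0.293% that rose at the first step of total RNA, and 18% that fell and 22.5% that rose at the second. Among the ligands Gdnf itself fell from spermatogonia to leptotene, from 0.891 to 2.68 FPKM to at most 0.127 (-1.10 ± 0.21, adjusted p = 0.0124). Nrtn, which encodes neurturin, held 1.22 to 7.46 FPKM in leptotene and fell by 2.44 ± 0.34 into pachytene (adjusted p = 0.00313). Thus 1 of 3 ligands tested fell at each step. Of the other receptors and coreceptors, Sdc3, the heparan sulfate proteoglycan syndecan 3, fell at the first step (-2.05 ± 0.34, adjusted p = 0.00628) and Gfra4 rose at the second, which is 1 of 4 tested each time. The 22 RET adaptors and kinases tested held no call at the first step, and 9 fell and none rose at the second. Among those 9, Grb2, an adaptor, fell by 2.18 ± 0.51 (adjusted p = 0.0105) and Akt1, a kinase, by 1.81 ± 0.36 (adjusted p = 0.00554).

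Of 8 GDNF-regulated targets tested, 3 fell at the first step, and none rose: Cxcr4, a chemokine receptor (-2.17 ± 0.36, adjusted p = 0.00652), Spry4, a feedback inhibitor of receptor tyrosine kinases (-1.46 ± 0.29, adjusted p = 0.0137), and Egr3, an immediate early factor (-0.92 ± 0.20, adjusted p = 0.0194). Cxcr4 and Spry4 are also expressed by somatic cells. At the second step Fos and Pou3f1 fell. Of 22 other genes of undifferentiated spermatogonia tested, 4 fell at the first step (Bmi1, Ddit4, Glis3 and Cd9). At the second 9 fell and 1 rose, and Sox3, a SOX family factor (-3.40 ± 0.44), Taf4b, a TFIID subunit (-3.34 ± 0.42), Mcam, an adhesion molecule (-3.11 ± 0.42), and Sohlh1, a helix-loop-helix factor (-3.07 ± 0.39), each fell with adjusted p = 0.00312. The medians of this list were -0.66 and -0.89. Of 11 genes of differentiating spermatogonia, 1 fell into leptotene, namely Kitl, which is known as a Sertoli cell product, and 8 fell into pachytene. Stra8 fell by 3.84 ± 0.43 and Dmrt1 by 4.03 ± 0.54 there (adjusted p = 0.00312 for both). Of 9 partners of let-7 control and translational repression, Pum2 fell at the first step (-1.77 ± 0.45, adjusted p = 0.0383) and Cnot1 was among those that rose at the second. With animal as a block, 5 of the calls on genes named here from these lists no longer passed. At the first step these were Egr3 (adjusted p = 0.0558) and Pum2 (0.0806). At the second, which then rests on animal 4 alone, they were Id3, Pou3f1 and Cnot1.

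Markers of later germ cells were set against the stage labels. The 8 leptotene and early meiosis markers had a sum of 237 FPKM in leptotene library 1 and 247 in library 4, but of 79.1 in library 2 and 97.4 in library 3. That sum was 251 in preleptotene and 34 to 53.7 in spermatogonia. Pachytene markers summed to 1947 FPKM in leptotene library 2 and to 106 to 151 in the other leptotene libraries. By the pachytene list leptotene library 2 thus went against its label. By the leptotene list it lay below the other leptotene libraries but above the pachytene ones (43.9 to 66.5). In nascent RNA the leptotene list summed to 123 in both leptotene libraries 2 and 3, and to 22.9 to 69.4 in pachytene. Whether labels or sorting differed in leptotene library 2 is not given in the sources used here. Of 8 leptotene and early meiosis markers none passed from spermatogonia to leptotene in total RNA, with Dmc1 at 1.72 ± 0.55 (adjusted p = 0.0953). With animal as a block Dmc1 was at 2.02 and passed (adjusted p = 0.0293). 4 of these 8 markers fell into pachytene. Of 10 pachytene markers 9 rose into pachytene, and of 4 spermatid markers tested 3 did.

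**Figure D5:**
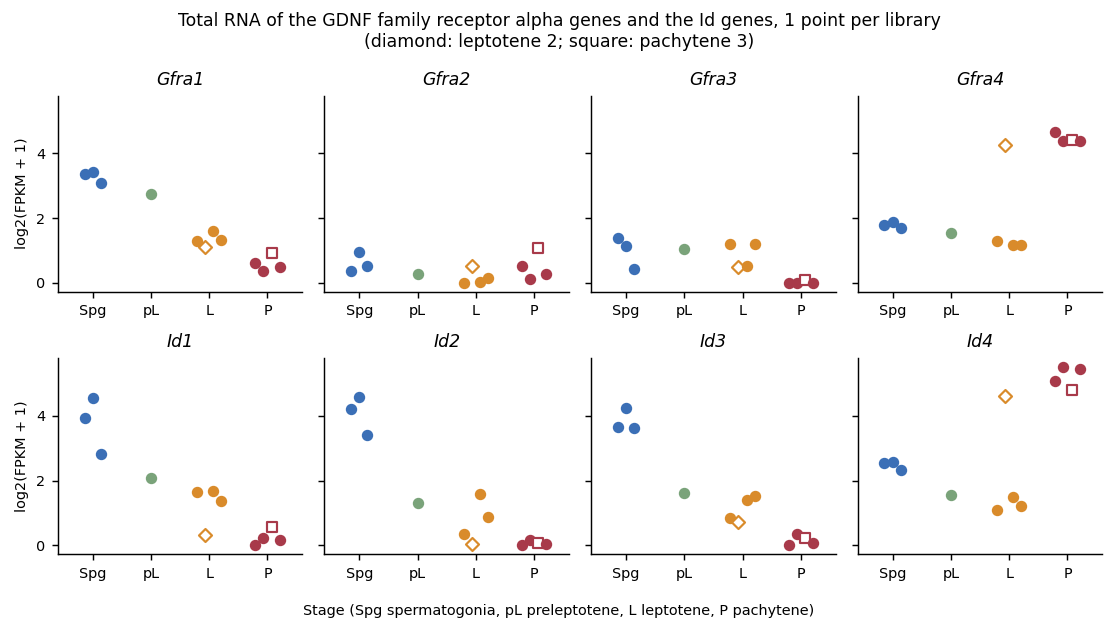
Total RNA of Gfra1 to Gfra4 and Id1 to Id4 by library, as log2(FPKM + 1) on the vertical axis against stage on the horizontal axis, 1 point per library. Gfra4 and Id4 are highest in pachytene libraries and leptotene library 2, while Gfra1 and Id1 to Id3 are highest in the 3 spermatogonia libraries.

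Paralogs of Gfra1 and Id4 ran in different directions. Gfra4, which encodes the receptor for persephin, stood at 2.21 to 2.7 FPKM in spermatogonia, 1.9 in preleptotene, 1.26 to 1.47 in leptotene libraries 1, 3 and 4 and 17.9 in library 2. In pachytene it held 19.6 to 24.1 FPKM, above every other library, and rose by 2.74 ± 0.49 (adjusted p = 0.00409). Gfra2 and Gfra3 did not exceed 1.11 and 1.62 FPKM in any total RNA library. Id1, Id2 and Id3, which are expressed in many somatic cells, stood at 6.12 to 22.2, 9.63 to 23.1 and 11.4 to 17.9 FPKM in spermatogonia and at most 2.2, 2.02 and 1.85 in leptotene. All of Id1, Id2 and Id3 fell at that step, by 2.18 ± 0.43, 3.02 ± 0.45 and 2.57 ± 0.32 (adjusted p = 0.0128, 0.00472 and 0.00323), and Id3 fell further into pachytene (-1.06 ± 0.32, adjusted p = 0.0278). None exceeded 0.49 FPKM in pachytene cells. Id4 was thus the single Id gene with more than 1 FPKM there.

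Over the 17 paralogs in the list, 14 could be tested, of which 4 fell at the first step, and 4 fell and 3 rose at the second. Foxo3 and Foxo4, the relatives of Foxo1, fell by 3.06 ± 0.40 and 2.92 ± 0.35 into pachytene (adjusted p = 0.00312 for both). Nanos1 fell by 2.04 ± 0.42 there (adjusted p = 0.00673), and Nanos2, the marker of the most primitive spermatogonia, stayed at or below 1.46 FPKM in every library. Lin28b, which shares let-7 binding with Lin28a, still held 2.53 to 4.35 FPKM in pachytene, where Lin28a held at most 2.36.

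Likeness was ranked among 5068 named genes with a mean of at least 5 FPKM, with the 10 members left out. Ret, Etv5 and the other members were thus not ranked. Over the 12 total RNA libraries the genes most like Gfra1 were Cavin1 (Pearson r = 0.985 of log2 values), Timp2 (0.979), Col1a1 (0.979), Hspg2 (0.978) and Lamc3 (0.978). Col1a1 belongs to the peritubular and vascular marker list, and Cavin1, Timp2, Hspg2 and Lamc3 encode a caveolar protein, a metalloproteinase inhibitor, perlecan and a laminin chain. The genes most like Id4 were Slc47a2 (0.996), Pnmal1 (0.995), Pcbp1 (0.995), Coa5 (0.994) and Cap1 (0.994), a transporter, a PNMA family gene, an RNA-binding protein, a mitochondrial assembly factor and an actin regulator. The libraries share 4 animals and fall into stages, so these coefficients describe the stage pattern.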

How the data were processed

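The authors deposited FPKM values per gene, 1 table for each assay. The submitters' processing notes name STAR 2.5.2a, StringTie and mm10; use of strand is not given in the sources used here. The third deposited table holds a signal that equals the nascent FPKM times 1 constant per library, for 9 of the 12 nascent libraries. The tables have 52323 rows with 92 spike-ins, which were left out of tests. Spike-ins were added after extraction, per the labels' protocols, and give no measure of a cell's RNA. Because the nascent FPKM include spike-ins, the members' calls were repeated with other rows rescaled.

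Values were averaged per animal within each stage and assay, as log2(FPKM + 1). Genes that reached 1 FPKM in 2 or more libraries were fitted with limma 3.58.1 in R 4.3.3 (eBayes with trend, two-sided, Benjamini-Hochberg over all genes), after tests on simulated data. Preleptotene, with 1 library, was left out of tests. The total over nascent comparison was the interaction of assay and stage. Before fitting, the 5S-corrected values were scaled together to the sum of the uncorrected table. Depth was read from the most common product of FPKM and length over genes with 1 transcript, taken as 1 read. Of the low values, 25.6% to 28.7% in total RNA libraries lay within 0.05 of a whole number of reads. In nascent libraries 26.7% to 34.7% did. Depth and implied reads are thus approximate, and implied reads cover counting error only.

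The members and lists were chosen with earlier results of these data known. From each list the text names at most 4 genes that passed, ranked by size of change, or otherwise the 2 most abundant; not all of them are printed, and 1 result is not reported here. Likeness was ranked over named genes other than the members, with a mean of at least 5 FPKM. Gfra2, Gfra3, Nanos2, Lin28b and A330033J07Rik fall outside that rule and were added after their values were seen. Stages share animals per the labels, so animal was fitted as a block as an alternative. Only animal 4 of total RNA and animal 8 of nascent RNA gave both leptotene and pachytene cells. The blocked second step is therefore the difference within that 1 animal, and its lost calls are weak evidence about the step. Deviations of the same animal's libraries from their stage means correlated at 0.08, 0.015 and 0.084 in total RNA and at -0.16, -0.119 and 0.054 in nascent RNA. Other alternatives were another pseudocount, no filter, other scalings, eBayes without trend and leaving out each library. Promoters were from RefSeq (GRCm38.p6) and exons from GENCODE M21. Python 3.11.15, pandas 2.3.3 and matplotlib 3.10.9 were used.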

Additional observations from a re-analysis of the deposited data

Results flagged for a closer look

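Each stage with 4 libraries was checked for a single library far from the others, over 40 groups of values of the 10 genes. A library was picked out where its gap to the nearest other library, as a share of the range of the 4, exceeded Dixon's critical value. That occurred in 14 groups. The groups share libraries and animals, and many hold values near 0. Where all other libraries are at 0, any value is picked out. The count is therefore not set against a rate expected by chance. In total RNA, Id4 in leptotene library 2 stood at 23.7 FPKM against 1.12 to 1.82 in the others, and Foxo1 in the same library at 2.87 against 10.4 to 10.9. Pachytene library 3 was high for Ret (0.206 FPKM, with the others at 0), Zbtb16 (1.94 against 0.143 to 0.224), Sall4 (2.87 against 0.137 to 0.178), Lin28a (2.36 against 0.106 to 0.24) and Utf1 (0.846 against 0 to 0.133). In nascent RNA, pachytene library 3 was again high for Etv5 (0.539 FPKM against 0.0961 to 0.147), Sall4 (1.75 against 0.189 to 0.391) and Lin28a (1.72 against 0.0986 to 0.302). Nascent Id4 stood at 4.92 FPKM in leptotene library 2 against 0.384 to 0.82, and nascent Gfra1 at 1.92 in leptotene library 3 against 0.527 to 0.733. Nascent Nanos3 reached 0.0807 FPKM in pachytene library 1 with the others at 0, and nascent Foxo1 2.14 in pachytene library 4 against 0.698 to 0.934. Spike-ins made up 13.1% of FPKM in that nascent library and 64.9% to 76.5% in the other pachytene ones. Rescaled to 1e6 outside the spike-ins, Foxo1 measured 2.92, 4.21, 4.1 and 5.84 in pachytene. Gfra1 measured 2.77, 2.36, 5.88 and 1.67 in leptotene on that scale. Both gaps were then smaller shares of the range. The check was made on FPKM and not repeated on that scale.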

How the results depend on the processing

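Over the 10 genes, 980 of the values obtained under alternatives kept their direction and their side of the threshold. A further 25 passed in addition, 28 no longer passed and 6 changed sign. The cause of these changes was not tested. With animal as replicate block, the genes called numbered 4471 for pachytene minus leptotene and 6155 for pachytene minus spermatogonia in total RNA, instead of 7726 and 10153. In nascent RNA they numbered 3346 for leptotene minus spermatogonia and 3245 for pachytene minus leptotene, instead of 1773 and 5177. The block changed no call of a member other than those of Zbtb16, Etv5, Nanos3, Utf1 and Foxo1 given above. The 5S-corrected table called 5013 genes and 8 members at the first nascent step, 1 member at the second, and 29 and 233 genes in the interaction of assay and stage. At the second nascent step it called 5630 genes higher and 354 lower. In uncorrected FPKM these were 2589 and 2588 over all libraries, and 3567 and 4605 over the same 9 libraries. The 5S-corrected scale also had these effects. The 5S-corrected table turned nascent Gfra1 from leptotene to pachytene to 0.23, and the difference between assays for Utf1 at the first step to 0.24. The 9 libraries of that table in uncorrected FPKM, a choice made after seeing the data, called 4960 genes and 5 members at the first step of total RNA. They called 5795 and 8172 genes at the steps of nascent RNA and 12 and 423 in the interaction, with nascent Utf1 at -0.12 from leptotene to pachytene. With no filter on low values the interaction called 408 genes at the first step and 189 at the second, instead of 0 and 4. Divided by the summed spike-ins, pachytene minus spermatogonia called 6521 genes higher and 4609 lower, against 4437 and 5716.

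Leaving out 1 library at a time gave 1052 to 2982 genes and 3 to 5 members at the first step of total RNA, against 1899 and 3. The lowest count came without leptotene library 4, and counts beyond 1.5 times came without leptotene library 1 (1215) and library 3 (2982). At the second step the range was 9 to 10205 genes and 0 to 8 members, with the lowest of both without leptotene library 1. Pachytene minus spermatogonia gave 6009 to 10952, again lowest without that library. Nascent RNA gave 1333 to 4186 genes and 3 to 5 members at the first step, highest without leptotene library 3, and 1570 to 6503 genes and 4 to 7 members at the second, lowest without leptotene library 1. The interaction gave 0 genes at the first step under each of these and 1 to 171 at the second, highest without leptotene library 2 of total RNA. Id4 in total RNA ranged from -1.18 to 0.0037 at the first step, the positive value without leptotene library 1. Utf1 ranged from -0.0046 to 0.33 at the second step of nascent RNA and from -0.72 to 0.29 in the interaction at the first. Of 590 values of 33 differences printed for genes of the lists, 524 kept their call, and 23 of the 64 lost calls came without leptotene library 1 of total RNA. Depth limits the low genes most: nascent Utf1 rested on at most about 15.5 reads a library.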
